A study of Mus musculus with 6 samples.

Results

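The 36 genes described here encode the enzymes of glycolysis, the proteins that make, move or oxidise lactate and pyruvate, and the hypoxia-inducible transcription factor HIF1 with its oxygen sensors and a set of its target genes. They were chosen by name for these roles, and they are 36 of the 32285 mouse genes listed in the files. UMIs of all 36 were present. Of these, 11 belong to upper glycolysis (Hk1, Hk2, Gpi1, Pfkl, Pfkm, Pfkp, Pfkfb2, Pfkfb3, Pfkfb4, Aldoa, Tpi1), 6 to lower glycolysis (Gapdh, Pgk1, Pgam1, Eno1, Eno2, Pkm), 9 to lactate and pyruvate handling (Ldha, Ldhb, Pdk1, Pdk2, Pdk3, Pdha1, Slc16a1, Slc16a3, Slc16a7), 4 to HIF1 and its sensing (Hif1a, Arnt, Egln1, Egln3) and 6 to other HIF1 targets (Vegfa, Bnip3, Bnip3l, Ddit4, Adm, Ankrd37).

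Spatial transcriptomics was performed on 6 coronal sections of the right hemisphere, each from a female mouse, and each group was represented by 1 section. The groups were E4 5xFAD and E3 5xFAD at 12 months, E4 aged and E3 aged at 24 months, and E4 young and E3 young at 3 months. All of these mice, on a B6.129P2 background, were homozygous for human APOE in place of the coding part of the mouse Apoe gene, under the mouse promoter, either as the E4 or as the E3 allele. The 5xFAD mice were a cross of these animals with the B6SJL 5xFAD line, in which transgenes that include mutant human APP are driven by the neuronal Thy1 promoter. The young mice served as the comparison for both other states, so the 5xFAD comparison also holds a difference in age and the background of the 5xFAD line, which cannot be told apart from the transgenes. Human APP was measured at 123 and 96.4 CPM (UMIs per 1000000 UMIs of the region) in the cortex of the E4 and E3 5xFAD sections and at no more than 0.388 CPM in the cortex of the other 4.

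Glycolysis splits glucose into pyruvate, and its entry is set by the hexokinases and by phosphofructokinase, whose activator is made by the Pfkfb enzymes. Pyruvate is reduced to lactate by lactate dehydrogenase, is oxidised in mitochondria by pyruvate dehydrogenase, which the Pdk kinases switch off, or leaves the cell as lactate through monocarboxylate transporters. When oxygen falls, the prolyl hydroxylases encoded by the Egln genes stop marking the HIF1 alpha subunit for degradation, and HIF1 then raises transcription of many of these genes. HIF1 is set largely at the level of its protein, so the RNA of Hif1a does not report its activity. In the brain, astrocytes and oligodendrocytes are known to export lactate, and neurons to take it up.

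HIF1 binds short sequences with the core ACGTG or GCGTG. The promoter windows of Hk2, Ldha and Pdk1 are shown because the levels of these genes were among those that differed most clearly between states or between regions. Each window runs from 250 bases before to 50 bases after the annotated start (RefSeq, GRCm38.p6), at chr6:82774405-82774704 on the minus strand for Hk2, chr7:46845554-46845853 on the plus strand for Ldha and chr2:71872974-71873273 on the plus strand for Pdk1. Capitals mark ACGTG or GCGTG on either strand, so that CACGT and CACGC are marked as well.
Hk2: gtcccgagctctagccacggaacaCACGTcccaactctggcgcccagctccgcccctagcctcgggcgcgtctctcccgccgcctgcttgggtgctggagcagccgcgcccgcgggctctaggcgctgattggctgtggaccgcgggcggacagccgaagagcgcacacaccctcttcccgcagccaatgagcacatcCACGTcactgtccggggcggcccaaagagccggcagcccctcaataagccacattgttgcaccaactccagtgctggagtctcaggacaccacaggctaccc
Ldha: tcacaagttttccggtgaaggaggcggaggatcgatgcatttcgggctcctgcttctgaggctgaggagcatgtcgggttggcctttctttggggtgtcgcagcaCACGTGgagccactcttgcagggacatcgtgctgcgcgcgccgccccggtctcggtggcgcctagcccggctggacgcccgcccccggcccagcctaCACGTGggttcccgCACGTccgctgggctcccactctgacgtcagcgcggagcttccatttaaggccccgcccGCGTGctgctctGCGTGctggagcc
Pdk1: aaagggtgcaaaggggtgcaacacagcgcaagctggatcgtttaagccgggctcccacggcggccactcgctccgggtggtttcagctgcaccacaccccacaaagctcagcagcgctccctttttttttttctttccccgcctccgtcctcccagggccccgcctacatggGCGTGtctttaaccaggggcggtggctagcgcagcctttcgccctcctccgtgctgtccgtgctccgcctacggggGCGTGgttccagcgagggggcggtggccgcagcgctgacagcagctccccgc
The windows shown held 2 matches for Hk2, 7 for Ldha and 2 for Pdk1. Where a gene had more than 1 window, the one with the most matches is shown. The other window of Ldha held 2 matches and that of Pdk1 held 0. Of the 7 in Ldha, 4 came from 2 palindromes, CACGTG, which are counted on both strands. Promoter windows were found for 34 of the 36 genes and not for Bnip3l and Slc16a7. At least 1 match was present in 40 of the 50 windows of these genes, or 80.0%, against 14380 of 32851 windows over the annotation, or 43.8%. No enrichment can be read from these 2 shares, because the genes were chosen in part as HIF1 targets. Several windows of 1 gene were counted separately, and windows were not matched for base composition. A match is a description of these letters only, and binding was not measured here.

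Spots listed both in a count matrix and as tissue in the deposited mask were used, 14524 in all. They held 20343701 to 37266232 UMIs per section, with a median of 10081.5 to 15360 UMIs per spot. This step left out 6 matrix spots in E3 5xFAD and 432 to 672 in each of the other sections. Its effect on the areas kept was not tested. Spots were clustered without the 36 genes, and clusters were named from area markers and joined to cortex, hippocampus, thalamus and fiber tracts. Among the spots kept, the E4 aged section held 190 cortical ones, against 713 to 937 in the other sections. Few of the 190 (3.68%) were of upper layers. Of these 190 spots, 137 came from 1 cluster. Its 10 leading genes held 2 markers of ventral cortex and amygdala and 0 of layer 5. Of the 354 thalamic spots of the E4 young section, 56 came from a cluster with 0 thalamic markers among its 10 leading genes. Fiber tracts were shallow, with a median of 359 to 2626 UMIs per spot. The sections are labelled as non-neuronal brain cells, yet neuronal markers summed to 5393 to 8120 CPM in cortex and hippocampus. A spot covers several cells, so that fewer cells of a type and less RNA per cell cannot be told apart. The intervals given for them cover counting error only.

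Across whole sections the levels of most of the genes varied little. The highest and lowest of the 6 sections lay within 1.5-fold of each other for 30 of the 36 genes. The other 6 were Hk2 (3.42-fold), Slc16a3 (2.90-fold), Egln3 (2.40-fold), Pfkfb3 (2.02-fold), Adm (1.78-fold) and Ddit4 (1.55-fold). Between brain areas, differences were wider, and the map of levels by area shows them for every gene.

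**Figure D1:**
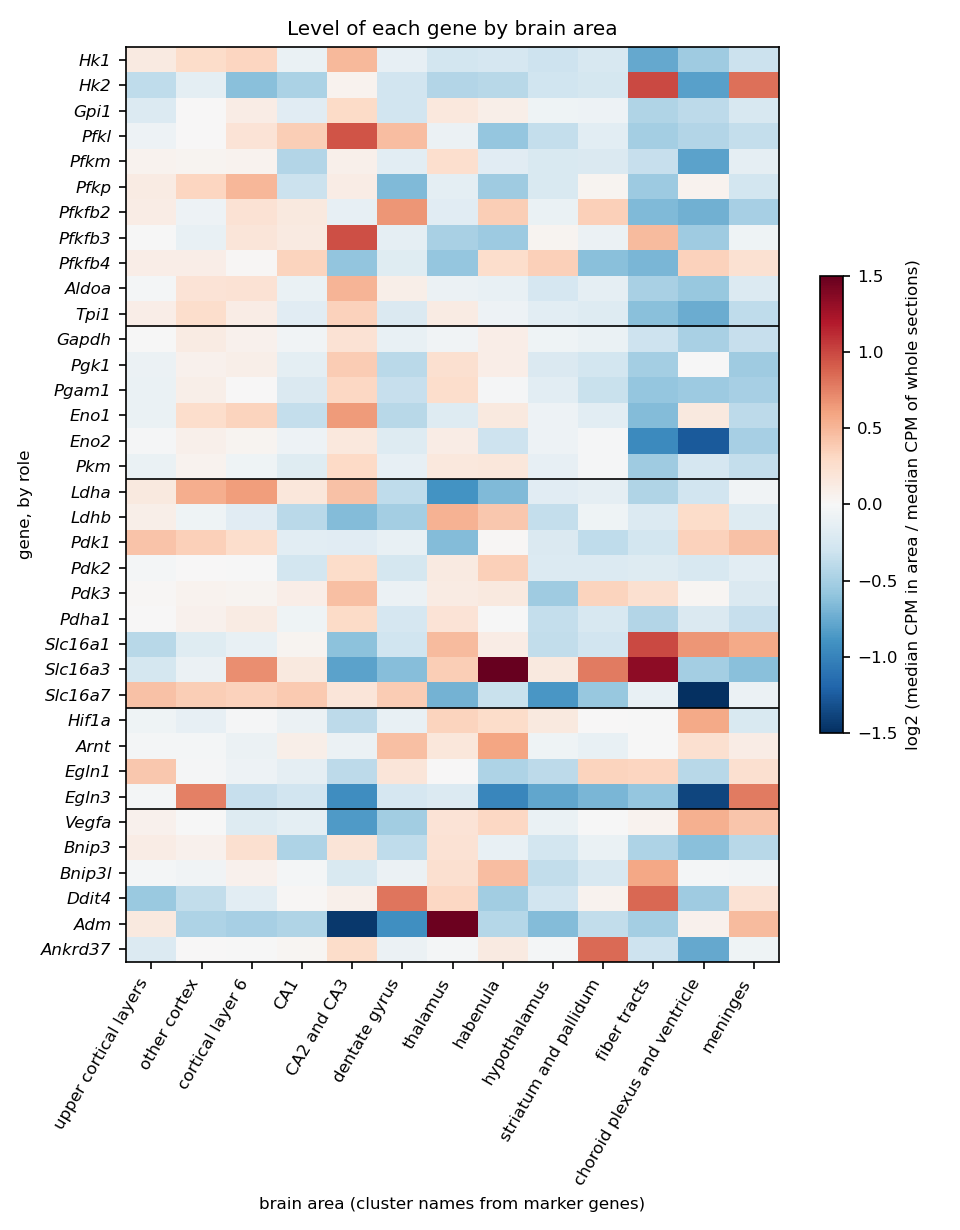
Level of each of the 36 genes (rows, by role, with black lines between roles) in 13 groups of clusters named by brain area (columns, where other cortex stands for 2 middle cortical clusters), as the log2 ratio of the median CPM in the area to the median CPM of whole sections, over the sections that held the area. Adm was high in thalamus, Slc16a3 in habenula and fiber tracts, Ddit4 in dentate gyrus and fiber tracts, and Pfkl and Pfkfb3 in the cluster named CA2 and CA3, while Ldha, Pdk1 and Slc16a7 were low in thalamus.

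Which of the genes differ between regions of the same section was tested with the section as a block (edgeR, quasi-likelihood test, Benjamini-Hochberg adjustment over all genes). Thalamus differed from cortex for 23 of the 36 genes, with 10 higher and 13 lower, where 55.0% of all genes tested were called. Fiber tracts differed from cortex for 23, with 6 higher and 17 lower, where 40.5% of all genes were called. Hippocampus differed from cortex for 16, with 4 higher and 12 lower, where 38.0% of all genes were called. The median log2 difference of the 36 genes was -0.29 in fiber tracts, -0.12 in hippocampus and 0.03 in thalamus, beside -0.04, 0.01 and 0.01 over all genes.

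The clearest regional contrast was in lactate dehydrogenase. Ldha, the subunit that favours the formation of lactate, was measured at 186 to 226 CPM in thalamus (median 198), against 445 to 567 CPM in cortex (median 497). The ranges did not overlap, and the log2 difference was -1.33 ± 0.07 (SE, adjusted p = 8.44e-17). Ldhb, the subunit that favours the return of lactate to pyruvate, ran the other way, at 1041 to 1174 CPM in thalamus and 576 to 813 CPM in cortex (0.59 ± 0.07, adjusted p = 3.47e-09). In hippocampus both subunits were below cortex, at 361 to 433 CPM for Ldha (-0.39 ± 0.07, adjusted p = 1.84e-05) and 497 to 618 CPM for Ldhb (-0.44 ± 0.07, adjusted p = 2.26e-06). In fiber tracts Ldha was lower (195 to 340 CPM, -0.80 ± 0.08, adjusted p = 4.06e-09), whereas Ldhb, at 600 to 736 CPM, was not called (-0.03 ± 0.07, adjusted p = 0.786).

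Pyruvate dehydrogenase kinase 1 followed a pattern like that of Ldha. Pdk1, which diverts pyruvate from mitochondrial oxidation, was measured at 17.4 to 23.9 CPM in thalamus and 40.0 to 43.3 CPM in cortex, with no overlap (-1.02 ± 0.07, adjusted p = 1.78e-13). It was also lower in hippocampus (27.2 to 32.6 CPM, -0.53 ± 0.07, adjusted p = 3.26e-07) and in fiber tracts (19.7 to 34.5 CPM, -0.43 ± 0.14, adjusted p = 0.0206). The related kinases Pdk2 and Pdk3 were called in no region, with cortical levels of 59.7 to 95.9 CPM and 26.5 to 29.4 CPM. Pdha1, a catalytic subunit of the pyruvate dehydrogenase that these kinases inhibit, was lower in fiber tracts only, at 139 to 225 CPM there and 222 to 256 CPM in cortex (-0.35 ± 0.07, adjusted p = 3.47e-04).

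The monocarboxylate transporters were divided between regions. Slc16a1 (MCT1), the transporter of oligodendrocytes, endothelium and astrocytes, was measured at 40.0 to 66.6 CPM in thalamus and 45.0 to 77.0 CPM in fiber tracts, against 24.1 to 33.9 CPM in cortex. Every section was above its own cortex in both regions (0.76 ± 0.08, adjusted p = 2.47e-09, in thalamus and 1.32 ± 0.15, adjusted p = 1.81e-08, in fiber tracts). In both regions 12 of 12 oligodendrocyte markers and 12 of 12 endothelial and mural markers were called higher than in cortex as well, and their part in the Slc16a1 difference was not tested. Slc16a7 (MCT2), the high-affinity transporter of neurons, was measured at 12.0 to 13.1 CPM in thalamus and 23.9 to 27.5 CPM in cortex, again without overlap (-1.11 ± 0.10, adjusted p = 1.07e-10). Slc16a3 (MCT4), a low-affinity exporter and a known HIF1 target, was sparse, and in fiber tracts it ranged between 0 and 16.9 CPM, against 1.79 to 6.63 CPM in cortex (1.15 ± 0.42, adjusted p = 0.0304).

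**Figure D2:**
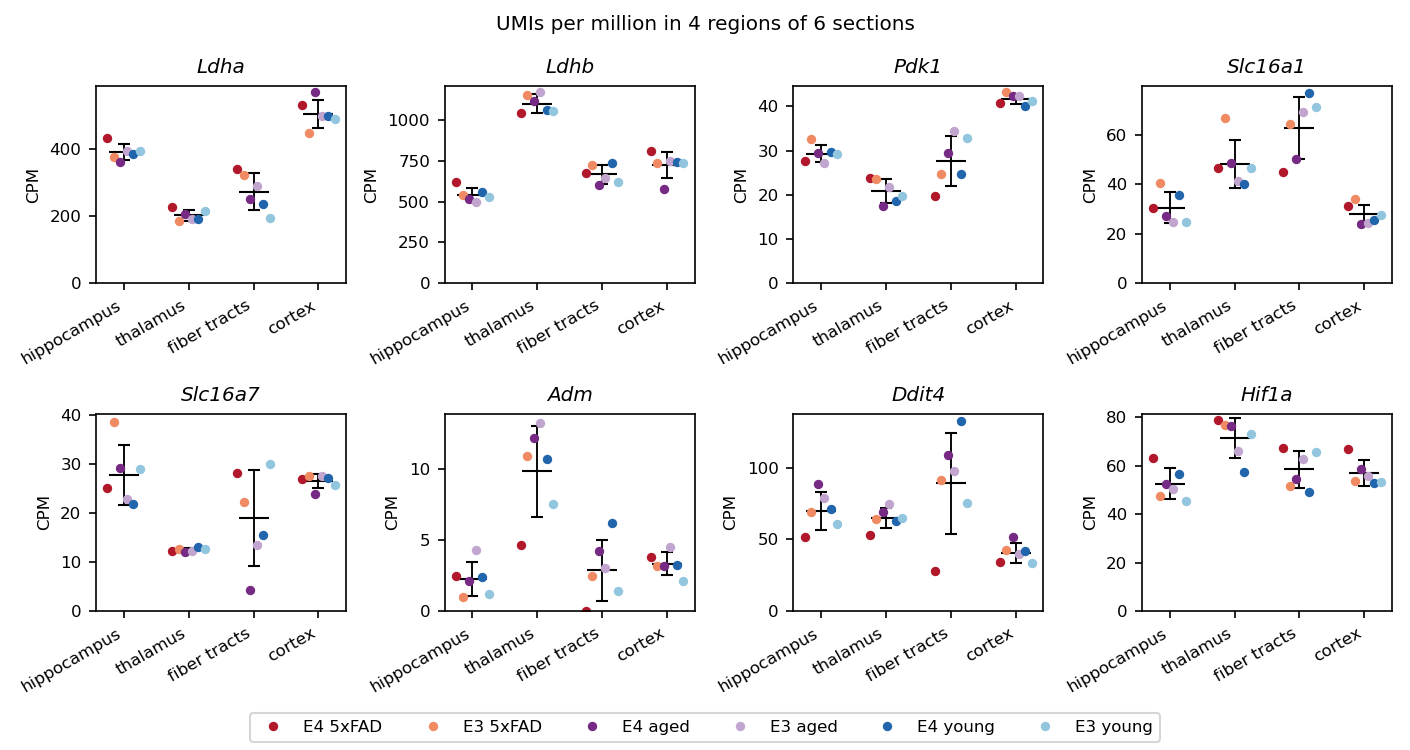
Level in CPM of 8 genes in hippocampus, thalamus, fiber tracts and cortex, with 1 point per section and black bars at the mean ± SD of the 6 sections. Thalamic Ldha (186 to 226 CPM), Pdk1 (17.4 to 23.9 CPM) and Slc16a7 (12.0 to 13.1 CPM) lie below every cortical value, and thalamic Ldhb, Slc16a1 and Adm lie above every cortical value.

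Expressed as shares within a family, these differences were seen in all 6 sections. Of the UMIs of both lactate dehydrogenase subunits, Ldha held 13.9 to 17.8% in thalamus and 24.0 to 33.4% in fiber tracts, against 37.7 to 49.6% in cortex. The cortical maximum was the E4 aged section (49.6%, exact 95% binomial interval 48.2 to 51.1%), and the other 5 cortices lay between 37.7% and 40.0%. In the E4 aged section 137 of the 190 cortical spots came from 1 middle cortical cluster, so this cortex covers another mix of areas. Within the hippocampus the share ran between 46.9% and 54.1% in the cluster named CA2 and CA3 and between 33.2% and 38.5% in dentate gyrus. Of the transporter UMIs, Slc16a1 held 72.0 to 77.0% in thalamus and 45.4 to 51.4% in cortex. Of the phosphofructokinase UMIs, Pfkl held 27.7 to 29.96% in hippocampus and 16.2 to 21.9% in cortex. Capture can differ between genes, so that a share is compared here between regions and not with that of another gene.

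**Figure D3:**
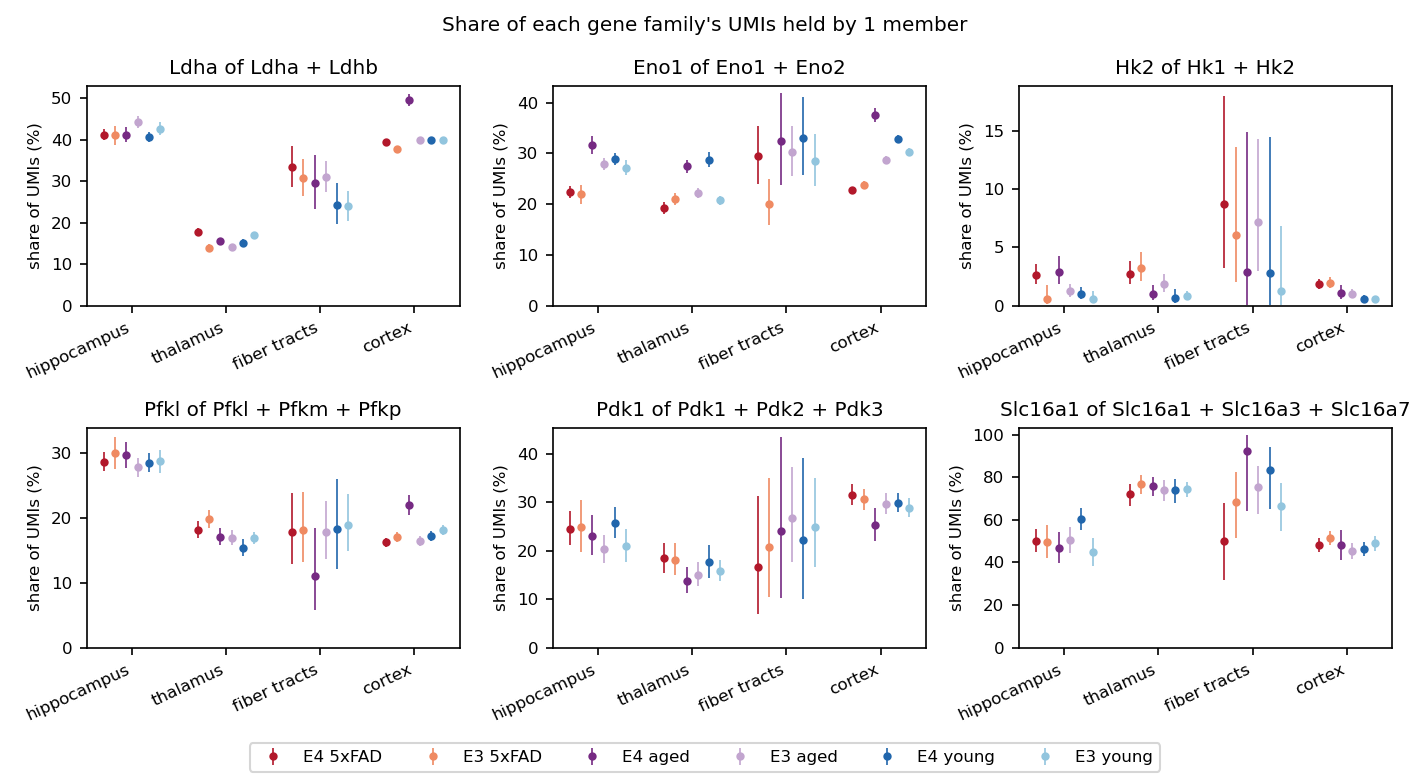
Share (percent) of the UMIs of each of 6 gene families that 1 member held, in 4 regions of the 6 sections, with exact 95% binomial intervals. The Ldha share lies at 13.9 to 17.8% in thalamus and 37.7 to 49.6% in cortex, and the cortical Eno1 share is lowest in the E4 and E3 5xFAD sections (22.7% and 23.8%).

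The genes of upper glycolysis differed by isoform. Hk1, the constitutive hexokinase of brain, was lower in thalamus (164 to 221 CPM, -0.55 ± 0.06, adjusted p = 1.18e-08), in fiber tracts (108 to 190 CPM, -0.92 ± 0.09, adjusted p = 2.13e-09) and in hippocampus (227 to 289 CPM, -0.20 ± 0.06, adjusted p = 0.0155) than in cortex (265 to 316 CPM). Hk2, the inducible hexokinase, was measured at 1.43 to 16.9 CPM in fiber tracts and 1.54 to 5.38 CPM in cortex (1.38 ± 0.45, adjusted p = 0.0133), on 1 to 7 UMIs per section in fiber tracts. Among the phosphofructokinases, Pfkl was higher in hippocampus (167 to 199 CPM, against 113 to 154 CPM in cortex, 0.52 ± 0.07, adjusted p = 2.84e-07), while Pfkp was lower there (167 to 206 CPM, against 250 to 307 CPM, -0.59 ± 0.06, adjusted p = 6.92e-10). Pfkm was lower in hippocampus (253 to 294 CPM, -0.24 ± 0.06, adjusted p = 9.70e-04) and higher in thalamus (325 to 366 CPM, 0.15 ± 0.06, adjusted p = 0.0258) than in cortex (281 to 341 CPM). Pfkp was lower in thalamus and fiber tracts too (-0.50 ± 0.06 and -0.74 ± 0.08), and Pfkl and Pfkm were lower in fiber tracts (-0.48 ± 0.12 and -0.27 ± 0.07).

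The Pfkfb enzymes make and break down the activator of phosphofructokinase. Pfkfb3, the most strongly activating of them, was measured at 21.0 to 34.9 CPM in hippocampus and 21.0 to 42.2 CPM in fiber tracts, against 13.0 to 29.1 CPM in cortex. Every section was above its own cortex in both regions (0.46 ± 0.09, adjusted p = 1.89e-04, and 0.76 ± 0.19, adjusted p = 0.00151). In thalamus it was lower (8.40 to 18.5 CPM, -0.48 ± 0.10, adjusted p = 1.47e-04). Within the hippocampus Pfkfb3 lay at 35.1 to 64.2 CPM in the cluster named CA2 and CA3, 18.2 to 33.9 CPM in CA1 and 16.1 to 18.6 CPM in dentate gyrus. That cluster had 1 marker of its own area and 2 of CA1 among its 10 leading genes, which were headed by Homer3, Cabp7 and Neurod6. Pfkfb2 was higher in hippocampus (0.24 ± 0.10, adjusted p = 0.0469) and lower in thalamus (-0.24 ± 0.10, adjusted p = 0.0333), and Pfkfb4 was lower in thalamus (-0.64 ± 0.15, adjusted p = 7.76e-04).

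The remaining glycolytic enzymes act between the phosphofructokinase step and pyruvate. All 9 of the other enzymes (Gpi1, which acts before that step, Aldoa, Tpi1, Gapdh, Pgk1, Pgam1, Eno1, Eno2 and Pkm) were lower in fiber tracts than in cortex, by log2 differences between -0.28 (Gapdh) and -0.70 (Eno1). Neuronal markers were lower in fiber tracts as well, at 2821 to 4303 CPM there and 6659.9 CPM or more in cortex, and their part in these differences was not tested. In thalamus, Pgk1 (0.21 ± 0.06, adjusted p = 0.00554) and Pgam1 (0.17 ± 0.05, adjusted p = 0.00725), which act in sequence, were higher than in cortex. Eno1 (-0.43 ± 0.08, adjusted p = 1.77e-05), Aldoa (-0.26 ± 0.06, adjusted p = 7.90e-04), Gapdh (-0.21 ± 0.06, adjusted p = 0.00710) and Tpi1 (-0.14 ± 0.06, adjusted p = 0.0426) were lower there. In hippocampus, Tpi1 (-0.25 ± 0.06), Eno1 (-0.25 ± 0.08) and Pgam1 (-0.17 ± 0.05) were lower. Eno1 shares sequence with the copy Eno1b, so that reads of the pair may be divided between them, and its values are uncertain.

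Of the genes of HIF1 and its sensing, Hif1a itself was higher in thalamus. Its level was 57.6 to 79.1 CPM in thalamus (median 74.8) and 52.9 to 67.0 CPM in cortex (median 54.7), and all 6 sections were above their own cortex (0.32 ± 0.06, adjusted p = 8.00e-05). Arnt, its partner subunit, was measured at 18.4 to 25.4 CPM in thalamus and 12.0 to 21.9 CPM in cortex (0.22 ± 0.09, adjusted p = 0.0430). Egln3, a hydroxylase that HIF1 itself induces, was lower both in hippocampus (1.90 to 6.06 CPM, -0.83 ± 0.16, adjusted p = 1.28e-04) and in thalamus (3.44 to 5.87 CPM, -0.72 ± 0.15, adjusted p = 1.83e-04) than in cortex (4.89 to 13.0 CPM). Egln1, the main oxygen sensor of most cells, was called in no region (59.7 to 68.6 CPM in cortex).

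The other HIF1 targets did not move as a group. Adm, the vasodilator adrenomedullin, was highest in thalamus among the 4 regions, at 4.62 to 13.2 CPM (median 10.8), against 2.10 to 4.51 CPM in cortex (median 3.21). The 2 ranges did not overlap (1.51 ± 0.17, adjusted p = 3.27e-09). Ddit4 (REDD1), an inhibitor of mTORC1 that stress induces, was higher in hippocampus (51.5 to 88.8 CPM, 0.76 ± 0.08, adjusted p = 5.63e-09), in thalamus (53.4 to 74.7 CPM, 0.68 ± 0.08, adjusted p = 1.62e-08) and in fiber tracts (28.1 to 132 CPM, 1.22 ± 0.14, adjusted p = 1.40e-08) than in cortex (33.2 to 51.9 CPM). Bnip3l (NIX), a receptor for the removal of mitochondria, was higher in fiber tracts (150.4 to 296 CPM, against 126 to 148 CPM in cortex, 0.77 ± 0.09, adjusted p = 3.28e-08) and in thalamus (0.23 ± 0.07, adjusted p = 0.00439). Its relative Bnip3 was lower in fiber tracts (-0.48 ± 0.09, adjusted p = 9.69e-05) and hippocampus (-0.36 ± 0.06, adjusted p = 8.44e-06). Vegfa, the angiogenic growth factor, was lower in hippocampus (22.2 to 32.6 CPM, against 34.4 to 44.3 CPM in cortex, -0.52 ± 0.10, adjusted p = 8.28e-05), and Ankrd37 was called nowhere (9.84 to 12.4 CPM in cortex).

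Some genes stood out in areas smaller than these regions, for which values are given without a test. In the hippocampus Ldha lay at 447 to 576 CPM in the cluster named CA2 and CA3, against 265 to 307 CPM in dentate gyrus, and Pfkl at 214 to 272 CPM in that cluster, 136 to 191 CPM in CA1 and 152 to 185 CPM in dentate gyrus. Ddit4 ran the other way, with 74.0 to 116 CPM in dentate gyrus and 47.7 to 67.4 CPM in the cluster named CA2 and CA3. Within the cortex, Ldha lay at 507 to 615 CPM in layer 6. Slc16a3 lay at 6.21 to 16.6 CPM in the habenula of the 5 sections that held it, on 2 to 8 UMIs. Slc16a1 lay at 36.7 to 106 CPM in the choroid plexus, whose epithelium expresses monocarboxylate transporters, and Slc16a7 at 0 to 12.0 CPM there. Ankrd37, a nuclear protein that hypoxia induces, lay at 12.8 to 22.6 CPM in striatum and pallidum.

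Other genes of the same pathways were called between regions in shares to be read against the 55.0%, 40.5% and 38.0% of all genes called in thalamus, fiber tracts and hippocampus. Of 25 other glycolysis and pyruvate genes tested, 14 were higher and 4 lower in thalamus, among them Pdp1, the phosphatase that reactivates pyruvate dehydrogenase (log2 difference 2.03), and Slc2a3, the neuronal glucose transporter (-0.62). In hippocampus 1 was higher (Dlat, 0.37) and 7 were lower, including Pdp1 (-0.63), and in fiber tracts 7 were higher and 8 lower, including Slc2a1, the glucose transporter of endothelium and glia (0.84), and Pdk4 (2.51). Of 24 other hypoxia response genes tested, 8 were higher and 5 lower in thalamus, and those with the smallest p were Arnt2, the neuronal relative of Arnt (-1.16), and Ndrg1 (1.18). In fiber tracts 6 were higher and 3 lower, among them Ndrg1, which is abundant in oligodendrocytes (2.84), Plin2 (1.57) and Epas1 (0.78), and in hippocampus 3 were higher and 3 lower.

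Whether the genes differ between 5xFAD and young sections was tested within each region over all 6 sections, with terms for the APOE allele and for the state. Of the 36 genes tested in cortex, 1 was called (Hk2), where 1.11% of all genes were called. In thalamus 1 of 36 was called (also Hk2), beside 1.87% of all genes, and in hippocampus 0 of 36, beside 1.01%. In fiber tracts 2 of the 28 genes tested were called (Eno2 and Bnip3l), beside 4.46%. At an unadjusted p under 0.05 these numbers were 5, 5, 7 and 6 in cortex, thalamus, hippocampus and fiber tracts, beside 10.3%, 10.5%, 9.19% and 16.1% of all genes. The median log2 fold change of the genes was 0.00 in cortex, 0.09 in thalamus, 0.04 in hippocampus and 0.12 in fiber tracts, beside 0.00, -0.01, 0.00 and 0.00 over all genes.

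Hk2 had the largest rise in cortex and thalamus. In cortex it was measured at 5.38 CPM in the E4 5xFAD section and 5.35 CPM in the E3 5xFAD section, on 78 and 69 UMIs. The aged cortices had 3.44 CPM (E4) and 2.87 CPM (E3), and the young cortices 1.61 CPM (E4) and 1.54 CPM (E3). Both 5xFAD values lay above all 4 others, both aged values lay above both young ones, and the 2 alleles were close within each state. The 5xFAD rise was 1.67 ± 0.26 on the log2 scale (SE, edgeR adjusted p = 0.0322), and the difference between aged and young cortex was 0.93 ± 0.31 (adjusted p = 0.954). In thalamus Hk2 was at 6.22 CPM (E4) and 6.48 CPM (E3) in 5xFAD, 1.87 CPM (E4) and 3.59 CPM (E3) in aged, and 1.01 CPM (E4) and 1.68 CPM (E3) in young sections. Both 5xFAD values again lay above the other 4. The 5xFAD rise there was 2.15 ± 0.41 (adjusted p = 0.0220). The cortical call was lost with DESeq2 (adjusted p = 0.109), in the spots of 2 middle cortical clusters alone (0.0793), with equal spots per cluster (0.275) and without the E4 5xFAD (0.149), E3 5xFAD (0.0948), E4 young (0.561) or E3 young (0.310) section, while the fold change stayed between 1.51 and 1.77. The thalamic call was lost with DESeq2 (0.241) and without the E4 5xFAD (0.135) or E3 young (0.0578) section.

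Hippocampal Hk2 did not follow the same order of sections. It was at 6.78 CPM (E4) and 1.46 CPM (E3) in 5xFAD, 7.22 and 3.58 CPM in aged, and 2.21 and 1.45 CPM in young hippocampus, on 3 to 38 UMIs. The E4 section exceeded the E3 section in each state, and the E3 5xFAD value lay within the range of the young ones. None of these differences was called (5xFAD 1.22 ± 0.46, adjusted p = 0.371, aged 1.61 ± 0.44, adjusted p = 0.302, E4 against E3 1.19 ± 0.37, adjusted p = 0.475). As a share of both hexokinases, Hk2 held 1.85% (E4) and 1.94% (E3) of cortical UMIs in 5xFAD, 1.08% and 1.02% in aged and 0.603% and 0.531% in young sections.

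**Figure D4:**
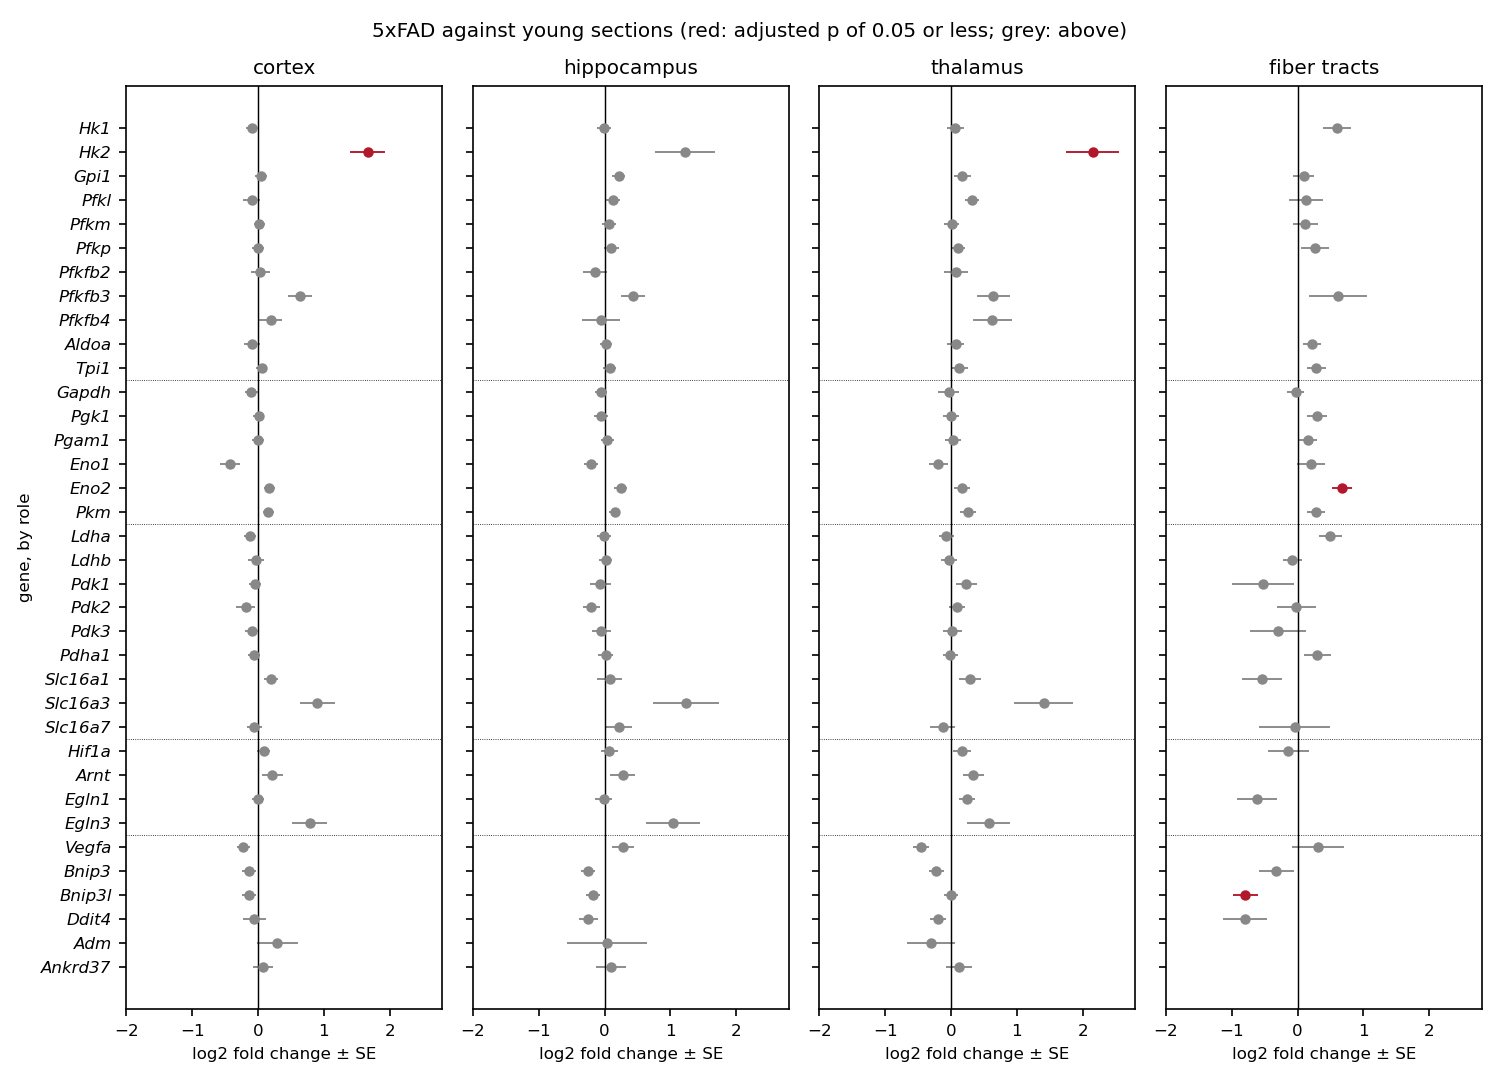
Log2 fold change ± SE of the 36 genes between 5xFAD and young sections in 4 regions, by role. Red points have an adjusted p of 0.05 or less (Hk2 in cortex and thalamus, Eno2 and Bnip3l in fiber tracts), grey points are above it, and 8 genes, Hk2 among them, were not tested in fiber tracts.

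Slc16a3, Egln3 and Pfkfb3, all of low level, were highest in the E4 5xFAD cortex, without passing the test. Slc16a3 was at 6.63 CPM (E4) and 4.58 CPM (E3) in 5xFAD cortex, 1.97 and 1.79 CPM in aged, and 2.58 and 3.02 CPM in young cortex. Egln3 was at 13.0 and 8.46 CPM in 5xFAD, 4.92 and 6.99 CPM in aged, and 4.89 and 6.87 CPM in young cortex. Pfkfb3 was at 29.1 and 18.8 CPM in 5xFAD, 16.2 and 18.9 CPM in aged, and 15.6 and 13.0 CPM in young cortex. For Slc16a3 and Egln3 both 5xFAD cortices lay above the other 4, and for Pfkfb3 the E3 5xFAD value lay within the aged range. The 5xFAD differences were 0.90 ± 0.27 (adjusted p = 0.273) for Slc16a3, 0.78 ± 0.27 (0.352) for Egln3 and 0.64 ± 0.18 (0.257) for Pfkfb3. All 3 of these, with Eno1 and Hk2, were called in the cortex when either aged section was left out, where the calls over all genes were 1068 (without E3 aged) and 934 (without E4 aged) in place of 166. Without E3 5xFAD, Egln3, Eno1 and Pfkfb3 were called, and without E4 5xFAD, E4 young or E3 young, none of the 36 was.

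The same genes in the other regions gave smaller counts. In hippocampus Slc16a3 was at 4.99 CPM (E4) and 2.43 CPM (E3) in 5xFAD, 1.504 and 1.43 CPM in aged, and 1.58 and 1.69 CPM in young sections (1.24 ± 0.50, adjusted p = 0.436). Egln3 was at 6.06 and 4.87 CPM in 5xFAD, 4.21 and 5.37 CPM in aged, and 1.90 and 3.86 CPM in young hippocampus (1.04 ± 0.41, adjusted p = 0.426). Pfkfb3 was at 34.9 and 26.3 CPM in 5xFAD, 23.5 and 24.0 CPM in aged, and 21.0 and 24.4 CPM in young hippocampus (0.43 ± 0.18, adjusted p = 0.464). For Slc16a3 and Pfkfb3 both 5xFAD hippocampi lay above the other 4. In thalamus Slc16a3 was at 5.82 and 7.17 CPM in 5xFAD, 3.36 and 2.28 CPM in aged, and 1.01 and 3.36 CPM in young sections (1.40 ± 0.44, adjusted p = 0.226). Vegfa in thalamus was at 34.3 and 33.5 CPM in 5xFAD, 48.0 and 47.6 CPM in aged, and 42.9 and 44.8 CPM in young sections, so that both 5xFAD values were the lowest, without passing the test (-0.45 ± 0.13, adjusted p = 0.153). Microglial markers were also higher in 5xFAD cortex. Their sum was 2372 (E4) and 1826 CPM (E3) in 5xFAD cortex, against 753 and 691 CPM in aged and 527 and 664 CPM in young cortex. Of the 13 markers, 10 were called higher in 5xFAD cortex. In 5xFAD hippocampus 10 were called higher too, where 0 of the 36 genes were called. The RNAs read as signs of RNA quality summed to 66386 (E4) and 85964 CPM (E3) in 5xFAD cortex, against 94053 and 96401 CPM in aged and 105795 and 107482 CPM in young cortex. The part of either in the rise of Hk2 was not tested.

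**Figure D5:**
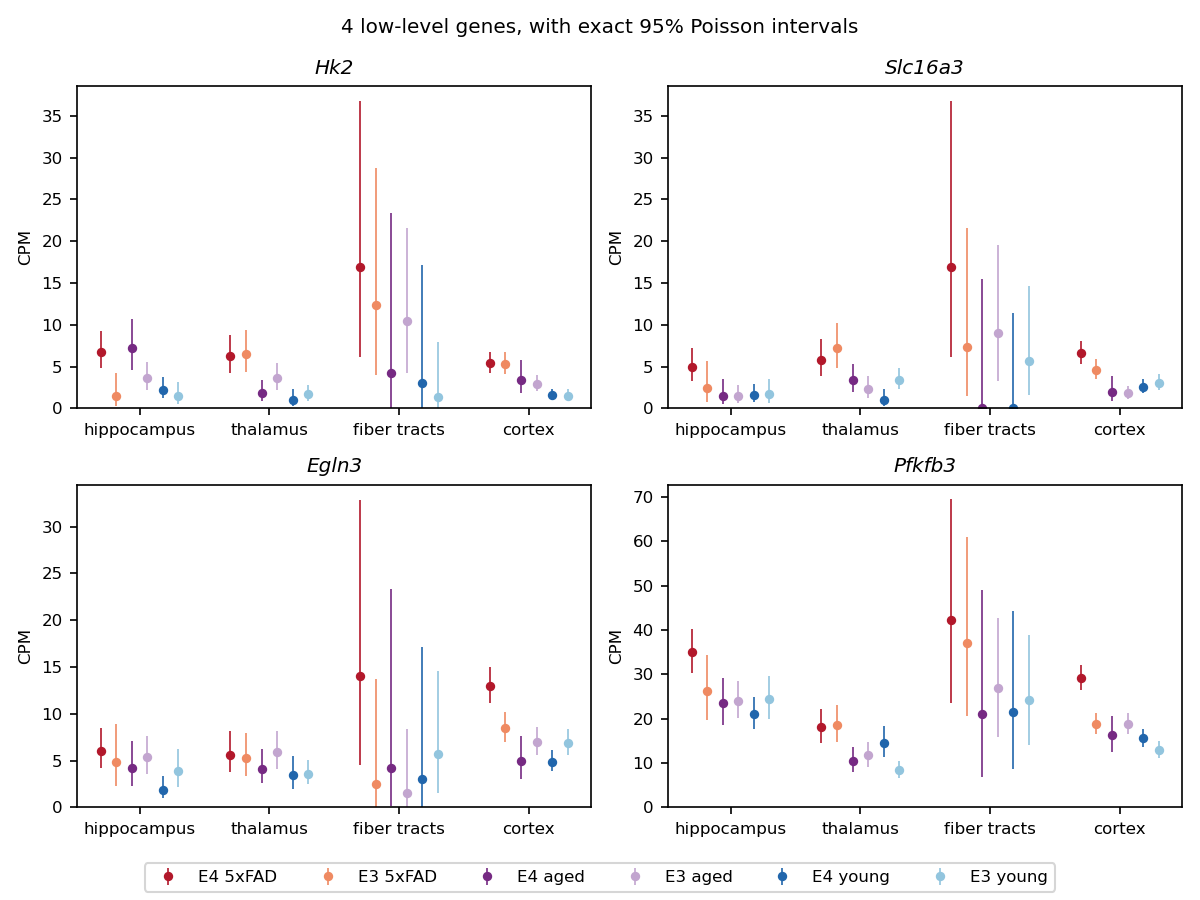
Level in CPM of Hk2, Slc16a3, Egln3 and Pfkfb3 in 4 regions of the 6 sections, with exact 95% Poisson intervals. In cortex Hk2 lies at 5.38 and 5.35 CPM in the E4 and E3 5xFAD sections and at 3.44 CPM or less in the other 4, and the intervals in fiber tracts are wide because the counts there are low.

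Cortical spots of the 5xFAD sections were divided by the presence of Cst7, a gene that microglia switch on around amyloid plaques. At least 1 Cst7 UMI was present in 595 of the cortical spots of the E4 5xFAD section and absent in 262 (69.4% with), and present in 370 and absent in 567 in the E3 5xFAD section (39.5% with). Spots with Cst7 were deeper, with medians of 17440 and 16376.5 UMIs with and without it in E4 and 14155.5 and 12168 UMIs in E3, and microglial markers summed to 2633 and 1701 CPM with and without it in E4. The median log2 difference of the 36 genes between these spots was 0.01 in E4 and -0.01 in E3. For Hk2 it was 0.48 (95% interval -0.31 to 1.35) in E4 and 0.33 (-0.39 to 1.06) in E3, and for Slc16a3 it was 0.66 in E4 (-0.08 to 1.47) and 0.51 in E3 (-0.28 to 1.30), all of which include 0. With at least 2 Cst7 UMIs per spot, the values in E3 were 0.81 (-0.11 to 1.68) for Hk2 and 1.04 (0.06 to 1.97) for Slc16a3, on 17 and 16 UMIs in those spots. In E4 they were 0.68 (-0.15 to 1.57) for Hk2 and 0.39 (-0.43 to 1.25) for Slc16a3, on 46 and 42 UMIs. The interval left out 0 for Gapdh (0.05, 0.02 to 0.08) and Egln1 (-0.23, -0.43 to -0.03) in E4 and for Aldoa (0.06, 0.02 to 0.09) and Ldha (0.10, 0.03 to 0.18) in E3, and for none of these 4 in both sections. With at least 2 Cst7 UMIs, that of Ldha in E3 included 0 (-0.02 to 0.19). Each comparison is within 1 section, and no test across animals was made. The share of all genes whose interval left out 0 was not computed, so no result about the 36 genes is read from these intervals.

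Eno1 was lowest in both 5xFAD cortices, without passing the test. It was at 215 CPM (E4) and 234 CPM (E3) in 5xFAD, 407 and 281 CPM in aged, and 294 and 275 CPM in young cortex (-0.43 ± 0.15, adjusted p = 0.374). Eno2, the neuronal enolase, was at 732 and 751 CPM in 5xFAD, 677 and 699.6 CPM in aged, and 600 and 635 CPM in young cortex. The share of Eno1 was 22.7% (exact 95% interval 22.0 to 23.4%) and 23.8% (23.0 to 24.5%) in the 5xFAD cortices, 37.6% and 28.7% in the aged and 32.9% and 30.2% in the young. Eno1b took 15.8% and 14.99% of the UMIs of Eno1 and Eno1b together in 5xFAD cortex, 10.6% and 10.3% in aged and 8.75% and 11.4% in young cortex. With both summed, the level was 256 and 275 CPM in 5xFAD cortex, against 456 and 313 CPM in aged and 322 and 311 CPM in young cortex.

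In fiber tracts, Eno2 was higher and Bnip3l lower in 5xFAD than in young sections. Eno2 was at 512 CPM (E4) and 629 CPM (E3) in 5xFAD, 315 and 363 CPM in aged, and 323 and 329 CPM in young fiber tracts, so that both 5xFAD values lay above the other 4 (0.67 ± 0.15, adjusted p = 0.00498). Bnip3l was at 199.7 and 150.4 CPM in 5xFAD, 206 and 205 CPM in aged, and 296 and 251 CPM in young fiber tracts, so that both 5xFAD values lay below the other 4 (-0.79 ± 0.19, adjusted p = 0.00633). Ldha and Hk1 were not called, although both 5xFAD values lay above the other 4. Ldha was at 340 CPM (E4) and 323 CPM (E3) in 5xFAD, 252 and 289 CPM in aged, and 237 and 195 CPM in young fiber tracts (0.50 ± 0.18, adjusted p = 0.111), and Hk1 at 177 and 190 CPM in 5xFAD, 143 and 135 CPM in aged, and 108 and 111 CPM in young ones (0.60 ± 0.21, adjusted p = 0.115). Cell markers differed between these tracts. Oligodendrocyte markers summed to 16931 (E4) and 17372 CPM (E3) in 5xFAD, 21092 and 20146 CPM in aged and 34183 and 38366 CPM in young fiber tracts, and 12 of 12 were called lower in 5xFAD. Neuronal markers summed to 4303 and 4051 CPM in 5xFAD and 2821 and 3279 CPM in young fiber tracts. Of 11 nuclear and mitochondrial RNAs read as signs of RNA quality, 2 were called higher and 8 lower in 5xFAD fiber tracts, and the mitochondrial share of whole sections was 9.31% (E4) and 11.3% (E3) in 5xFAD, against 12.7 to 13.7% in the other 4. The part of these values in either difference was not tested. Both calls were lost with DESeq2 (adjusted p = 0.231 for Eno2, 0.308 for Bnip3l) and without the E3 5xFAD or E3 young section. That of Bnip3l was also lost without E4 young and with equal spots per cluster (adjusted p = 0.112).

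Of the other genes of these pathways, few were called between 5xFAD and young. Among the other hypoxia response genes, Ndrg1 fell in 5xFAD fiber tracts (-1.03 ± 0.17, adjusted p = 4.63e-05, 1 of 13). Among the other glycolysis and pyruvate genes, Mpc1, a subunit of the mitochondrial pyruvate carrier, fell in fiber tracts (-0.73 ± 0.18, adjusted p = 0.00756, 1 of 14), and 0 of the 26 tested in cortex were called.

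Aged and young sections differed in few of the genes. In cortex 0 of 36 were called beside 0.0201% of all genes, in hippocampus 0 beside 0.380%, in thalamus 0 beside 0.135% and in fiber tracts 1 of 28 beside 1.64%. At an unadjusted p under 0.05 there were 1, 4, 2 and 2 in these regions, beside 4.38%, 5.63%, 4.78% and 10.97% of all genes. The gene called was Vegfa, at 67.1 CPM (E4) and 73.5 CPM (E3) in aged fiber tracts and 18.5 and 35.6 CPM in young ones, on 6 to 49 UMIs. The 5xFAD tracts had 36.6 and 41.9 CPM, between the other states. Both aged values were the highest of the 6 (1.34 ± 0.34, adjusted p = 0.0249). Astrocyte markers were also higher in aged fiber tracts, at 4355 and 4530 CPM, against 2993 and 2967 CPM in young, and blood genes lay at 180 and 459 CPM, against 123 and 28.5 CPM. Of the oligodendrocyte markers 9 of 12 were called lower, and of the RNAs read as signs of RNA quality 7 of 11 were called higher, in aged fiber tracts. The part of these values in the Vegfa difference was not tested. The call was lost with equal spots per cluster (adjusted p = 0.0612) and without either aged or either young section (0.0600 to 0.343). Of the other glycolysis and pyruvate genes, Aldoc, the aldolase of astrocytes, rose in aged fiber tracts (0.59 ± 0.13, adjusted p = 0.00982).

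The largest differences between aged and young cortex and hippocampus were in sparse genes, and none was called. Beside Hk2, they were Slc16a3 in cortex (-0.60 ± 0.34, adjusted p = 0.954), Egln3 in hippocampus (0.80 ± 0.41, adjusted p = 0.892) and Adm in both. Adm was at 3.20 CPM (E4) and 4.51 CPM (E3) in aged cortex and 3.22 and 2.10 CPM in young cortex, with 3.80 and 3.18 CPM in 5xFAD (0.61 ± 0.33, adjusted p = 0.954). In hippocampus Adm was at 2.11 and 4.30 CPM in aged and 2.37 and 1.21 CPM in young sections, with 2.496 and 0.974 CPM in 5xFAD (0.88 ± 0.55, adjusted p = 0.938). The aged and young values overlapped in both regions.

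E4 and E3 sections were compared over all states with the same fit. None of the genes was called in cortex, hippocampus, thalamus or fiber tracts (edgeR), beside 0.0134%, 0.0684%, 0.0150% and 0.0725% of all genes, and 0, 5, 2 and 0 had an unadjusted p under 0.05, beside 5.34%, 6.57%, 6.71% and 5.10% of all genes. In cortex the largest differences were in Pfkfb4 (0.33 ± 0.15, adjusted p = 0.893), Pfkfb3 (0.24 ± 0.16, 0.897) and Pfkfb2 (0.15 ± 0.12, 0.902). Pfkfb4 was at 9.80 CPM (E4) and 7.99 CPM (E3) in 5xFAD, 10.1 and 6.68 CPM in aged, and 7.98 and 6.59 CPM in young cortex, higher in E4 in each of the 3 states. Pfkfb2 was at 18.2 and 14.2 CPM in 5xFAD, 15.2 and 15.5 CPM in aged, and 15.6 and 13.8 CPM in young cortex, higher in E4 in 2 of the 3. In hippocampus, after Hk2, the largest were in Slc16a3 (0.41 ± 0.45, adjusted p = 0.929) and Egln3 (-0.30 ± 0.34, adjusted p = 0.928).

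Hif1a differed between alleles by less than 1.5-fold in each region and state. In cortex it was at 67.0 CPM (E4) and 53.8 CPM (E3) in 5xFAD, 58.8 and 55.6 CPM in aged, and 52.9 and 53.4 CPM in young sections. In hippocampus it was at 63.3 and 47.7 CPM in 5xFAD, 52.7 and 50.3 CPM in aged, and 56.7 and 45.3 CPM in young sections (0.28 ± 0.11, adjusted p = 0.661), higher in E4 in each state. In thalamus it was at 79.1 and 77.0 CPM in 5xFAD, 76.6 and 66.2 CPM in aged, and 57.6 and 73.1 CPM in young sections. Of the 354 E4 young spots there, 56 came from a cluster without thalamic markers among its 10 leading genes, and their part in this value was not tested. Its cortical log2 ratio of E4 to E3 was 0.32 in 5xFAD (exact 95% interval 0.18 to 0.46), 0.08 in aged and -0.02 in young sections.

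Within a state each allele was 1 section, and the ratio of E4 to E3 was read only as a fold with its counting interval, over genes with at least 100 UMIs in the pair. In 5xFAD cortex 2 of the 35 genes covered were past 1.5-fold, beside 3.06% of all genes. They were Pfkfb3 (29.1 CPM in E4 and 18.8 CPM in E3, log2 ratio 0.63, exact 95% interval 0.40 to 0.87) and Egln3 (13.0 and 8.46 CPM, 0.62, 0.27 to 0.97). In aged cortex 1 of 33 was, beside 7.44%, namely Pfkfb4 (10.1 and 6.68 CPM, 0.59, 0.02 to 1.15), and in young cortex 0 of 33, beside 1.53%. Which gene passed depended on the setting, since Egln3 in 5xFAD and Pfkfb4 in aged cortex were not past this fold with equal spots per cluster, and Pfkfb3 in 5xFAD and Pfkfb4 in aged cortex were not with the mean share per spot. In hippocampus 1 of 30 was past this fold in 5xFAD, beside 3.99%, namely Slc16a7 (25.1 CPM in E4 and 38.5 CPM in E3, -0.61, -1.02 to -0.20), and 0 of 31 in both young (3.23%) and aged sections (2.45%). With the mean share per spot, Slc16a1 was past it in place of Slc16a7. No test across animals is possible for these pairs, and each interval covers counting error only.

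Whether a state acted differently in another region than in cortex was tested with terms for region by state. None of the 36 genes was called for 5xFAD or for aged in hippocampus, thalamus or fiber tracts (edgeR, section as a block), while 2 to 111 of 14900 genes were called over these 6 comparisons. The smallest adjusted p was that of Ldha for 5xFAD in fiber tracts, with a log2 difference to cortex of 0.64 ± 0.17 (adjusted p = 0.0818).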

How the data were processed

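Per the labels and the methods, the authors made 10x Visium libraries from 6 sections and deposited raw UMI counts per gene and spot. The submitters' processing notes name Space Ranger 1.3.0, STAR 2.5.1b and the builds mm10 and GRCh38, whereas the headers of the matrices name version 2.0.0 (E3 5xFAD) or 1.2.2 (the remaining sections). Reads of near-identical genes such as Eno1 and Eno1b may be divided or dropped by such counting, and no correction was made.

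Spots listed both in a count matrix and in the deposited tissue mask were kept (99.9% of the mask in E3 5xFAD, 75.9 to 86.0% in the other 5). The positions of these 5 sections matched their mask only after the array was turned. The mask was used as deposited and left out 432 to 672 matrix spots in each of these 5 sections, against 6 in E3 5xFAD. Its effect on the areas kept was not tested, and spatial position entered in no other way. Barcodes coincide between sections because every slide carries the same set. Spots of all sections were clustered together on 20 principal components of 3000 variable genes without the 36 genes (igraph 0.11.9, resolution 0.8) and named from area markers. A clustering with the 36 genes put 97.5% of spots in the same region. The 2 middle cortical clusters scored highest for layer 5, but the larger had 0 markers of layer 5 and 2 of ventral cortex and amygdala among its 10 leading genes, so no layer name is given to them.

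Counts were summed per section and region and tested with edgeR 4.0.16 in R 4.3.3 (TMM, filterByExpr, quasi-likelihood, Benjamini-Hochberg threshold 0.05), with terms for allele and state and 2 residual degrees of freedom. Regions were compared with the section as a block. Standard errors are the absolute log2 fold change over the square root of F. Since each group is 1 section of 1 animal, p-values rest on the spread between 6 sections under an additive model, and slide or run cannot be told apart from group. E4 over E3 within a state, Cst7 spots and isoenzyme shares are given with exact 95% binomial intervals (scipy 1.17.1). The fits were also run on simulated counts with a fixed dispersion and no shift in cell mix between sections. That run cannot measure how reliable the calls are in these sections. DESeq2 1.42.0, no filter, library totals, equal spots per cluster, the other clustering and leaving out each section were tried, and 2 middle cortical clusters alone and spots with at least 500 UMIs were added after the data were seen.

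The members and lists were chosen with earlier results of these data known. Values in every section are given for genes called in a comparison of states or alleles, for Hif1a and for the 3 with the largest log2 fold change per contrast in cortex and hippocampus. Ranges over the 6 sections are given for genes called between regions. Other pathway genes are named only if called, at most 5 per list and contrast. A result among them is not reported here. The neuronal list leaves out Thy1, since the transgenes carry Thy1 sequence. A second identifier with the symbol Aldoa held 2 UMIs in all and was left out.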

Additional observations from a re-analysis of the deposited data

How the results depend on the processing

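No paired analysis was possible because the labels give no replicate numbers and each group is 1 section, so that states and alleles share no animal. Regions were compared within sections. None of the 62 calls between regions changed direction under any alternative, and 50 of them were kept under all. The others were Arnt, Gapdh, Pfkfb2, Pfkm and Tpi1 in thalamus, Eno1, Hk1, Pfkfb2 and Pgam1 in hippocampus, and Hk2, Pdk1 and Slc16a3 in fiber tracts, which were lost under at least 1 alternative. None of the 5 calls between states changed direction, and 0 were kept under all. The cause of each loss was not tested, and neither was the part of the smaller number of sections or spots where some were left out.

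Of the counts of genes called between 5xFAD and young, DESeq2 gave 0 in cortex, 0 in thalamus and 0 in fiber tracts, where 20 of the 35 genes fitted had an adjusted p. It also gave 0 between aged and young in fiber tracts (13 of 35 with an adjusted p), and 0 in the other comparisons of states and alleles. Equal numbers of spots per cluster gave 0 in 5xFAD cortex, 1 in 5xFAD fiber tracts and 0 in aged fiber tracts, and the 2 middle cortical clusters alone gave 0 in 5xFAD cortex. Library totals gave 5 in 5xFAD fiber tracts (Bnip3l, Eno2, Hk1, Ldha and Pkm), beside 378 of 6901 over all genes. Without the filter 2 were called in 5xFAD thalamus (Hk2 and Slc16a3), beside 512 of 20041 over all genes. In aged hippocampus 1 (Hk2) was called without the filter, beside 127 of 19703. Leaving out 1 section gave 0 to 5 in 5xFAD cortex, 1 to 2 in 5xFAD fiber tracts, 0 to 1 in 5xFAD hippocampus (Ddit4 without E3 5xFAD), 0 to 2 in 5xFAD thalamus, 0 to 3 in aged cortex (Eno1, Ldhb and Pdk2 without E3 aged), 0 to 1 in aged fiber tracts and 0 to 1 in aged hippocampus (Hk2 without E3 5xFAD). The same step gave 0 for E4 against E3 in all regions.

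For E4 over E3 within a state, 1 gene was past 1.5-fold in 5xFAD cortex with equal spots per cluster and 1 with the mean share per spot, in place of 2. Over all genes these settings gave 272 of 11492 and 389 of 11906. With a minimum of 20 UMIs there was 1 of 36 in young cortex, beside 898 of 14576 over all genes. In hippocampus there were 3 of 35 in 5xFAD, beside 1421 of 12559 over all genes. Young hippocampus had 3 of 35, beside 1240 of 12884, and aged hippocampus 2 of 35, beside 1082 of 12515. With at least 2 Cst7 UMIs, 4 genes in the E4 section (Pfkm, Gapdh, Pdha1 and Egln1) had an interval that left out 0, in place of 2. The share of all genes with such an interval was not computed, so these counts are given as a description only. In the E3 section the number stayed at 2, with Slc16a3 in place of Ldha beside Aldoa.

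Over all genes, the calls between 5xFAD and young numbered 345 in cortex without the filter and 42 to 1068 when 1 section was left out, against 166. They numbered 48 (DESeq2) and 322 (no filter) against 133 in hippocampus, 155 and 512 against 250 in thalamus, and 70 (DESeq2) and 173 (equal spots) against 308 in fiber tracts. Between aged and young they numbered 14 (DESeq2), 23 (no filter) and 18 (equal spots) against 3 in cortex, and 24 (DESeq2) and 67 (equal spots) against 113 in fiber tracts. Leaving out 1 section gave 67 to 446 in hippocampus, 244 to 542 in thalamus and 108 to 361 in fiber tracts between 5xFAD and young. Between aged and young it gave 5 to 924 in cortex (924 without E3 aged), 53 to 179 against 50 in hippocampus, 12 to 224 against 18 in thalamus and 22 to 193 in fiber tracts. Between E4 and E3 it gave 2 to 231 against 2 in cortex (231 without E3 aged), 37 to 178 against 9 in hippocampus, 3 to 72 against 2 in thalamus and 3 to 10 against 5 in fiber tracts.

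Depth limits the sparse genes most. Hk2 rested on 14 to 78 UMIs per section in cortex and on 1 to 7 in fiber tracts, where 8 of the 36 genes were too low to be tested between states.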
